A study of Mus musculus with 3 samples.

Results

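The genes described here encode 6 proteins that serve as target antigens in membranous nephropathy, a kidney disease in which antibodies bind antigens beneath the podocytes of the glomerulus. They are Pla2r1, Thsd7a, Nell1, Mme, Htra1 and Ncam1, of 18193 genes with a named probe set. The genes were chosen as known antigens of this disease, and every probe set annotated to 1 of them alone was taken, which gave 17 probe sets. The RNA came from isolated glomeruli of 3 male, nondiabetic mice of the inbred strain FVB/NJ, which were 8 weeks old, and each mouse had its own Affymetrix mouse whole-genome array. About 1000 glomeruli were pooled per mouse, and no mouse carried a listed transgene or received a listed agent beyond standard chow. The series was set up against diabetic OVE26 mice, which were not analysed here, so the comparisons are between individual mice of 1 group.

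In membranous nephropathy, antibody binds its antigen on the outer side of the glomerular basement membrane, and the immune complexes activate complement and injure the podocyte. PLA2R1, the M-type receptor for secreted phospholipase A2, is the antigen in most adult patients, and THSD7A, a membrane protein with thrombospondin repeats, was the next to be found. NELL1, a secreted protein, HTRA1, a secreted serine protease, and NCAM1, a cell adhesion molecule, are antigens in smaller patient groups, NELL1 often alongside a tumour and NCAM1 in lupus. MME, or neprilysin, a membrane metallopeptidase of podocytes and of the proximal tubule brush border, is the antigen in newborns whose mothers lack the protein. THSD7A is known on mouse podocytes, whereas PLA2R1 has been described as a podocyte protein of humans that mouse podocytes lack.

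The sequences around the transcription start of Thsd7a and Pla2r1, whose RNA was detected, and of Nell1, whose RNA was not, are shown to set these genes side by side. They come from RefSeq (GRCm38.p6), run 5′ to 3′ on the strand of the gene, and cover 250 bases before and 50 bases after the annotated start. Capitals mark the GC box, searched as GGGCGG and, on the other strand, as CCGCCC.
Thsd7a, chr6:12749204-12749503, minus strand: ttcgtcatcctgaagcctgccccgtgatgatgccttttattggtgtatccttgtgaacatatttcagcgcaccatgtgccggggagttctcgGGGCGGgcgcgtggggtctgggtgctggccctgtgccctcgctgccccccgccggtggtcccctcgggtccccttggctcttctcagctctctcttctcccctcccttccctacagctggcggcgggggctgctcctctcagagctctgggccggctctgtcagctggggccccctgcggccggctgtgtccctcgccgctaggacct
Pla2r1, chr2:60553259-60553558, minus strand: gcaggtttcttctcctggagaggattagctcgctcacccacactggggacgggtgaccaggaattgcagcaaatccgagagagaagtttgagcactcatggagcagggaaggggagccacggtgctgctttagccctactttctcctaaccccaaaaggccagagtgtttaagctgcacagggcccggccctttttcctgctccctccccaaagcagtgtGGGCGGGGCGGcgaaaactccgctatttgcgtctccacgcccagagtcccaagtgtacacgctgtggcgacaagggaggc
Nell1, chr7:49975100-49975399, plus strand: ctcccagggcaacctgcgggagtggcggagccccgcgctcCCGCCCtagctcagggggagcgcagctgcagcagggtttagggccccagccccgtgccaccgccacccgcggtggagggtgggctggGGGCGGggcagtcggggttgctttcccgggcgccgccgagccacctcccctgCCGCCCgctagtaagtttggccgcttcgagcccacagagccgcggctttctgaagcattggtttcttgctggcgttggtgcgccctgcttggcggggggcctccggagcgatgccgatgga

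The Pla2r1 window held 2 GC boxes that overlap, beginning 30 and 25 bases before the start, the Thsd7a window held 1 and the Nell1 window held 3. Of the 6 genes 5 had a window in the table, Ncam1 being the exception. Mme had 3 windows for separate starts, of which windows 2 and 3 overlap, and Htra1 had 1. All 7 windows held a GC box, which occurred in 35.7% of 32851 windows of this length over all genes. None of the 7 held a TATA box (TATAAA or TTTATA), which occurred in 13.6% of all windows. The CCAAT box (CCAAT or ATTGG) and the E-box (CAGCTG) occurred in 37.4% and 16.3% of all windows. A CCAAT box was present for Thsd7a, Nell1, Htra1 and Mme windows 2 and 3, and an E-box for Thsd7a and Nell1. The share of G and C was 66.7% for Thsd7a, 58.7% for Pla2r1 and 72.3% for Nell1. It was 65% for Htra1, and 46%, 73% and 72.3% for Mme windows 1, 2 and 3. Over all windows the median share was 52.7% and the upper quartile 61.7%. How often a GC box occurs in windows of like G and C share was not computed. Nell1, which was not detected, thus carried the GC box as did Thsd7a and Pla2r1, which were. These matches describe the letters of the windows and say nothing on which factors bind them.

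Expression is given as log2 GCRMA values, so that a difference of 1 is a doubling, and errors are SD over the 3 mice (n = 3). A probe set was called above background on an array when it exceeded the 95th percentile of 80 olfactory and vomeronasal receptor probe sets, genes taken to be silent in glomeruli. That threshold was 2.58, 2.91 and 2.86 in mice 1, 2 and 3. The array medians were 2.82, 2.85 and 2.82, and Pearson's r between arrays, taken across probe sets, which are not independent replicates, was 0.986 to 0.988. In isolated glomeruli, fewer cells of a type and less RNA per cell cannot be told apart. The number of arrays limits the precision of every value, and levels of different probe sets were not ranked, since each binds its target with its own efficiency.

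Of the 6 antigen genes, 5 had RNA above background in all 3 mice and Nell1 had none, while 58.3% of all genes had a probe set above background on all arrays. Among the probe sets of these genes 10 of 17 were above background on all arrays, 6 on none and 1 on some, against 52.9% above background for all probe sets with 1 gene. The presence of podocyte RNA was checked with 12 marker genes, of which 9 had a named probe set. All 9 were above background in all mice, among them Nphs1, the nephrin gene of the slit diaphragm (11.36, 11.30 and 10.90 in mice 1, 2 and 3), and Podxl, the podocalyxin gene (14.56, 14.56 and 14.51). Glomeruli also hold endothelial and mesangial cells, whose markers were likewise above background for 8 of 8 and 6 of 6 genes. For parietal epithelium it was 3 of 5. The isolates carried tubule RNA too, with 12 of 14 proximal tubule markers and 4 of 8 markers for later tubule segments above background in all mice. Among these 4 were Umod (12.47, 13.56 and 13.06 in mice 1, 2 and 3) and Slc12a1 (10.09, 11.68 and 10.85). The arrays therefore do not assign an antigen to a cell type, within the glomerulus or outside it.

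**Figure D1:**
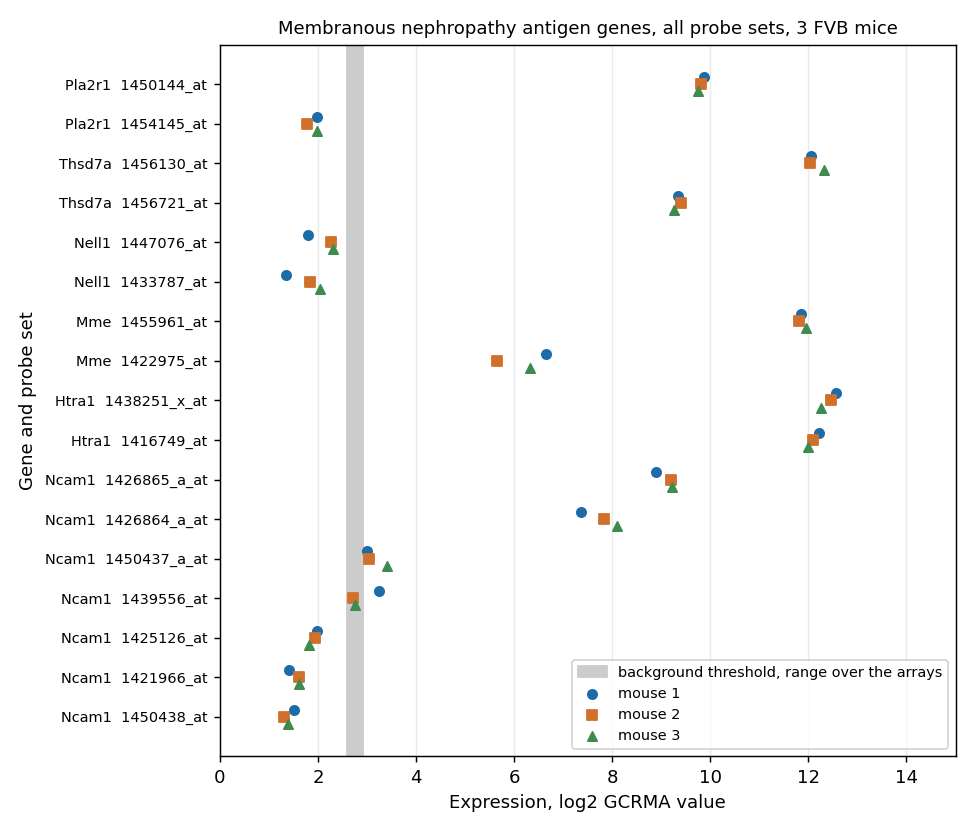
Expression of the 6 antigen genes in 3 FVB mice: each row is a probe set, each symbol a mouse, the x axis is the log2 GCRMA value, and the grey band spans the background thresholds of the arrays (2.58 to 2.91). Both Nell1 probe sets lie left of the band, both probe sets of Thsd7a, Mme and Htra1 lie right of it, and the 7 Ncam1 probe sets are spread over both sides.

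Pla2r1, the receptor that is the main antigen in adults, was detected by 1 of its 2 probe sets. Probe set 1450144_at, designed on a RefSeq mRNA, read 9.87, 9.81 and 9.75 in mice 1, 2 and 3 (mean 9.81 ± 0.06), between 6.89 and 7.29 above the thresholds. The mice lay within 1.09-fold of each other, and none stood away from the others. Probe set 1454145_at, whose listed sequence is not a RefSeq mRNA, read 1.98, 1.77 and 1.98 and was below background in all mice. The calls of the probe sets thus disagreed on whether Pla2r1 RNA was present, and the gene counts as detected through the first.

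Thsd7a, which encodes the thrombospondin-repeat antigen of the podocyte foot process, was detected by both probe sets. Probe set 1456130_at read 12.05, 12.04 and 12.32 in mice 1, 2 and 3 (mean 12.14 ± 0.16), with mouse 3 highest by 0.27 over the mean of the others. Probe set 1456721_at read 9.35, 9.39 and 9.25 (mean 9.33 ± 0.07), with mouse 3 lowest. The probe sets therefore disagreed on the place of mouse 3, and neither range exceeded 1.21-fold.

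Mme, the neprilysin gene, was detected by both probe sets, and these differed in how much the mice varied. Probe set 1455961_at read 11.84, 11.80 and 11.95 in mice 1, 2 and 3 (mean 11.87 ± 0.07), a range of 1.10-fold. Probe set 1422975_at, designed on a RefSeq mRNA, read 6.65, 5.64 and 6.33 (mean 6.20 ± 0.51), and its range of 1.002 on the log2 scale, or 2.003-fold, was the widest among the 10 detected antigen probe sets. Mouse 2 was lowest by both, while mouse 3 was highest by the first and mouse 1 by the second. Neprilysin is also a brush border enzyme, and proximal tubule RNA differed strongly between these isolates. Of 14 proximal tubule markers 12 were above background in all mice and the other 2 in some, and all 12 were highest in mouse 3, by a median of 2.60 over the mean of the other mice. The sum of the 14 markers on the linear scale was 1991, 3004 and 12564 in mice 1, 2 and 3. This sum is weighted toward its brightest gene, Kap (10.30, 10.81 and 12.62), and does not measure tubule content. The sodium-phosphate cotransporter gene Slc34a1 read 4.44, 5.35 and 7.41, and the megalin gene Lrp2 read 5.04, 5.43 and 7.81. Across the same mice the brighter Mme probe set was higher in mouse 3 by 0.12 over the mean of the others, and the dimmer by 0.18. Leukocytes can carry neprilysin too, and 5 of 6 detected leukocyte markers were highest in mouse 1, as was the dimmer Mme probe set. The sum of the 10 leukocyte markers with a named probe set was 1403, 790 and 435 on the linear scale in mice 1, 2 and 3. It is weighted toward its brightest genes, Lyz2 (9.47, 8.22 and 7.02) and Csf1r (8.01, 8.23 and 7.69). The T cell gene Cd3e and the B cell gene Cd79a were below background. The part of tubule and leukocyte RNA in the Mme values was not tested.

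Htra1, whose product is a secreted serine protease of the extracellular matrix, was detected by both probe sets. Probe set 1438251_x_at read 12.55, 12.46 and 12.26 in mice 1, 2 and 3 (mean 12.43 ± 0.15), and the suffix x of its name marks probes that may also bind other transcripts. Probe set 1416749_at, without that suffix and designed on a RefSeq mRNA, read 12.21, 12.10 and 11.98 (mean 12.10 ± 0.11). Both placed mouse 1 highest and mouse 3 lowest, within ranges of 1.22-fold and 1.17-fold. Podocyte markers were also lowest in mouse 3 for 8 of 9 genes, with a median of -0.11 against the mean of the other mice, a shift that stands beside -0.25 and -0.17 for the Htra1 probe sets. Those podocyte markers were highest in mouse 2 for 5 of 9 genes and in mouse 1 for 4, whereas Htra1 was highest in mouse 1. Endothelial markers were highest in mouse 1 for 6 of 8 genes and lowest in mouse 3 for 4 of 8. The part of podocyte or endothelial content in the Htra1 values was not tested.

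Ncam1, which encodes the neural cell adhesion molecule, had 7 probe sets, of which 3 were above background in all mice. Probe set 1426865_a_at read 8.88, 9.21 and 9.22 in mice 1, 2 and 3 (mean 9.10 ± 0.19), and 1426864_a_at read 7.37, 7.84 and 8.10 (mean 7.77 ± 0.37). The suffix a marks sets that bind several transcripts of the same gene. Probe set 1450437_a_at lay just above background at 3.01, 3.04 and 3.41 (mean 3.15 ± 0.22), by as little as 0.13 in mouse 2. All 3 were lowest in mouse 1 and highest in mouse 3, with ranges of 1.26-fold, 1.66-fold and 1.32-fold. These sets read the same gene and do not count as separate observations of that order.

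The other 4 Ncam1 probe sets gave little or no signal. Probe set 1439556_at read 3.24, 2.72 and 2.75 and exceeded the threshold in mouse 1 alone. Probe sets 1425126_at, 1421966_at and 1450438_at lay between 1.30 and 1.97 in all mice, below background throughout. NCAM1 is made as several splice forms with different 3′ ends, and the probe sets of the gene were not assigned to them here. Nerve and Schwann cell markers were measured because nerve fibres carry NCAM1. Of 7 genes with a named probe set 5 were below background in all mice, and Sox10 was above it on some arrays. Uchl1, a ubiquitin hydrolase gene listed as a neuronal marker, was above background in all mice (6.74, 4.67 and 5.91). The arrays do not assign its signal to a cell type. The summed linear level of the 7 markers was 133, 53.7 and 85.1 in mice 1, 2 and 3. Since Uchl1 alone was above background in all mice, differences in that sum follow mainly this 1 gene and do not measure nerve content. The part of nerve RNA in the Ncam1 values was not tested. RNA quality was read from the 3′ minus 5′ difference of control probe sets, which for actin was 1.49, 1.81 and 2.05, and that of the Gapdh control was 0.48, 1.08 and 0.92. This 3′ minus 5′ difference was smallest in mouse 1 for both controls. In the same mouse the detected Ncam1 probe sets were lowest and both Htra1 probe sets highest. The part of RNA quality in the Ncam1 and Htra1 values was not tested.

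Nell1, the gene of a secreted protein with EGF-like repeats, was below background by both probe sets in every mouse. Probe set 1447076_at read 1.80, 2.27 and 2.30, and 1433787_at read 1.34, 1.84 and 2.05 in mice 1, 2 and 3. These values lay 0.55 to 1.24 below the thresholds. At that level they carry no usable order of the mice, and they show only that these probe sets gave no signal over background. For neither is the listed sequence a RefSeq mRNA. Nell2, the relative of Nell1, was detected in all mice at 8.11, 8.53 and 8.56, with mouse 1 lowest.

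The spread between mice was then set against that of all genes. For each detected antigen gene, taken by its brightest probe set, the SD lay between 0.06 for Pla2r1 and 0.19 for Ncam1, with a median of 0.150, beside a median of 0.157 over 10609 genes above background. Without mouse 3 the median was 0.0426 for the antigen genes, beside 0.120 over all genes above background. It was 0.101 beside 0.128 without mouse 1, and 0.186 beside 0.135 without mouse 2, so its place depends on the mice used. The variance of each probe set was compared with the distribution that limma fitted over all 18472 probe sets above background, with a trend on mean level, in a one-sided test for excess variance. With Benjamini-Hochberg adjustment 0 of the 10 antigen probe sets passed at 0.05, and so did 0 of all probe sets tested, or 0% of them. At an unadjusted p under 0.05 the counts were 0 of 10 for the antigens and 784 of 18472 overall. The smallest unadjusted limma p among the antigens was 0.10, for Mme probe set 1422975_at, with an adjusted p of 0.97. The fitted prior had 3.29 degrees of freedom and the test made no call for any gene, including the proximal tubule gene Miox, whose range was 4.32 on the log2 scale, so a missing call does not show that the mice were alike.

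A range of at least 1 on the log2 scale, or 2-fold, was seen in 1 of the 10 antigen probe sets, 1422975_at of Mme, beside 5.87% of all probe sets above background. That range passed the limit by 0.002, and without mouse 1 or without mouse 2 no antigen probe set reached it. The remaining 9 antigen probe sets ranged from 1.09-fold to 1.66-fold. Of the 10 sets, 4 were highest in mouse 1, 1 in mouse 2 and 5 in mouse 3, where 34.7%, 29.2% and 36.0% of all probe sets above background were highest. Sets of the same gene are not separate observations. By the brightest probe set of each detected antigen gene the counts were 2, 0 and 3.

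**Figure D2:**
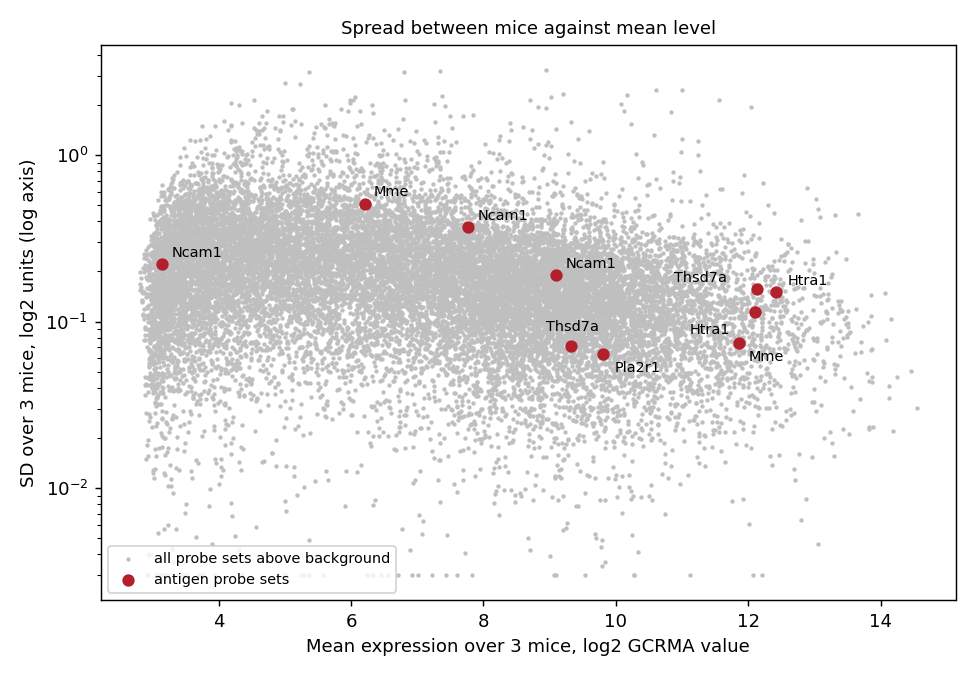
SD over the 3 mice (log axis, log2 units, values under 0.003 drawn at 0.003) against mean log2 GCRMA expression for all 18472 probe sets above background in grey and the 10 antigen probe sets in red. The antigen probe sets lie inside the grey cloud, from 0.06 for Pla2r1 to 0.51 for the dimmer Mme probe set.

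Cell type markers were set beside these differences as medians over the genes of a list, which hide single genes that moved further. The brightest probe sets of Pla2r1, Thsd7a, Mme and Htra1 deviated in any mouse by at most 0.27 from the mean of the other mice, and that of Ncam1 by -0.33 in mouse 1. Podocyte markers had median deviations of 0.05, 0.12 and -0.11 in mice 1, 2 and 3, endothelial markers 0.17, -0.09 and -0.08, and mesangial markers 0.03, -0.18 and -0.04. Of the 9 podocyte markers 1 had a 2-fold range, Tcf21, at 12.44, 11.27 and 12.02 in mice 1, 2 and 3. No endothelial or mesangial marker had such a range. Tubule and leukocyte markers deviated further, with medians of -1.90, -0.73 and 2.60 for the proximal tubule, -1.01, 1.003 and 0.02 for 4 detected genes of later tubule segments, and 1.71, -0.15 and -1.76 for 6 detected leukocyte genes.

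**Figure D3:**
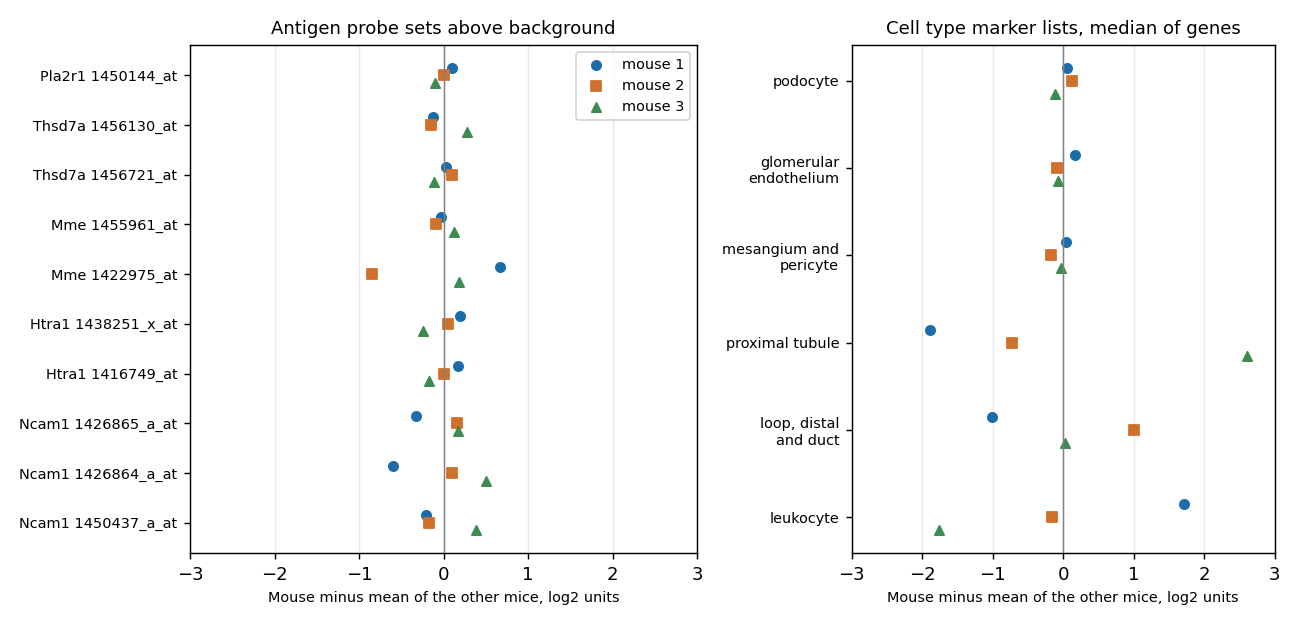
Difference of each mouse from the mean of the other mice in log2 units, for the 10 antigen probe sets above background (left) and as the median over detected genes of 6 cell type marker lists (right). Antigen probe sets stay between -0.84 and 0.66, whereas the proximal tubule list spans -1.90 to 2.60 and the leukocyte list -1.76 to 1.71.

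Further antigens named in membranous nephropathy were looked up as a list of 15 genes, of which 13 had a named probe set. Of these 10 exceeded background on every array, where 58.3% of all genes had a probe set above background. The other 3 exceeded it on none, namely Pcdh7, Cntn1 and Ndnf, which encode a protocadherin, a neuronal contactin and a secreted neurotrophic factor. None of the 10 passed the variance test and none had a 2-fold range, beside 5.94% of all genes above background. Their median SD was 0.0948. The exostosin genes Ext1 (8.31, 8.36 and 8.41 in mice 1, 2 and 3) and Ext2 (8.44, 8.44 and 8.48) encode the enzymes that polymerise heparan sulfate, and their products mark lupus-associated disease. Both varied little, with SDs of 0.05 and 0.03. Sema3b, which encodes a secreted semaphorin and is an antigen mainly in children, read 6.71, 6.56 and 6.59.

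Several membrane antigen genes of that list were among the 10 detected. Fat1, a giant protocadherin gene, read 12.32, 12.16 and 11.94, with mouse 3 lowest as for Htra1. Tgfbr3, the betaglycan gene, read 11.77, 11.65 and 11.77, and Npr3, the natriuretic peptide clearance receptor gene, read 11.47, 11.57 and 11.37. Vasn, the vasorin gene, read 12.14, 11.87 and 11.95 by a probe set that may also bind other transcripts. Ntng1, the netrin G1 gene, lay close to its thresholds at 2.61, 3.13 and 3.05, and its call rests on a margin of 0.02 in mouse 1.

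Family relatives of the antigens were detected in part. Of 15 relatives 7 exceeded background on every array, 7 on none and 1 on some, beside 58.3% of all genes above background on all arrays. Mrc1, the mannose receptor gene of the Pla2r1 family, read 10.70, 10.82 and 10.74, and Mrc2 read 9.33, 9.38 and 9.36, while the third relative, Ly75, was below background. Thsd7b, the relative of Thsd7a, read 2.47, 2.34 and 2.14 and Ncam2, the relative of Ncam1, read 2.52, 2.39 and 2.20, all below background. Among the metallopeptidases related to Mme, the endothelin-converting enzyme gene Ece1 (10.42, 10.28 and 10.53) and Ece2 (3.36, 3.70 and 3.19) were above background, and Mmel1 was below it at 1.82, 1.61 and 1.52. Calls of antigen genes and relatives thus went both ways. Thsd7a, Mme and Ncam1 were each detected where Thsd7b, Mmel1 and Ncam2 were not, and Nell2 was detected where Nell1 was not. Mrc1 and Mrc2 were detected along with Pla2r1, Ece1 and Ece2 along with Mme, and Htra2 and Htra4 along with Htra1.

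Relatives of Htra1 included the 1 gene of the family list with a 2-fold range. Htra4, a serine protease gene, read 5.95, 4.46 and 5.08 in mice 1, 2 and 3, a range of 1.48 on the log2 scale, and it did not pass the variance test (limma, adjusted p = 0.97). Mouse 2 was lowest for Htra4, whereas mouse 3 was lowest for Htra1. Htra2, a mitochondrial protease gene, read 8.77, 8.86 and 8.51, and Htra3 was above background in mouse 1 alone at 2.80, 2.80 and 2.52.

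**Figure D4:**
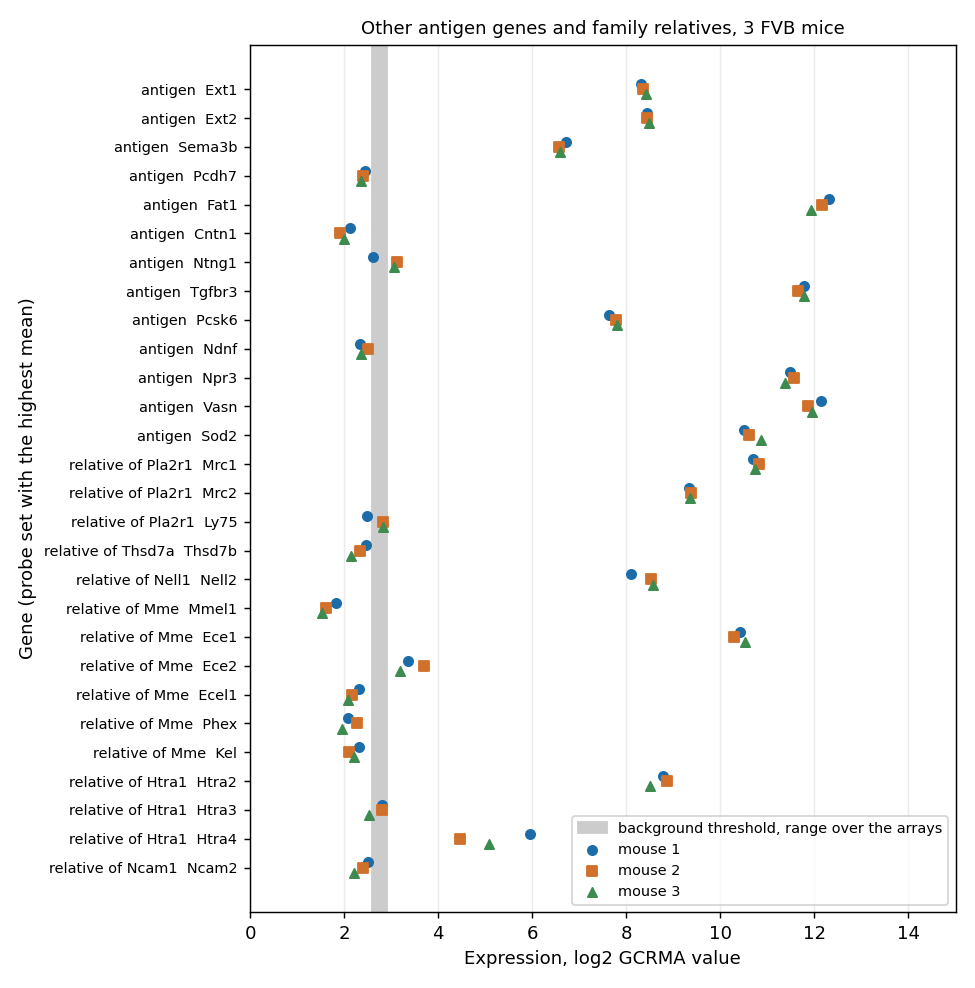
Log2 GCRMA expression of 13 further antigen genes and 15 family relatives in 3 FVB mice, each by its probe set with the highest mean, with the background thresholds as a grey band (2.58 to 2.91). Of the antigens 10 lie above background in all mice, Ntng1 barely so, and Htra4 shows the widest spread.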

How the data were processed

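RNA of glomeruli from 3 FVB/NJ mice was hybridised to 1 Affymetrix mouse whole-genome array each, labelled from the 3′ end per the labels' protocols. The deposited values are log2 expression values that the authors made with GCRMA, per the submitters' processing notes. That scale is an inference from their range, 0.67 to 14.76. The version used, and which arrays were normalised together, are both not given in the sources used here. The method leaves tied values, at 2.18% to 2.49% of probe sets per pair of arrays, which lowers some SDs. No further normalisation was applied, and 0 columns of sample values went unused.

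Of 45101 probe sets 34945 had 1 gene symbol in the platform annotation, 932 had several and were not used, and 9160 had none listed besides 64 control sets. The IDs of all 6 antigen genes matched the reference gene table. For gene lists the probe set with the highest mean stood for a gene. The variance test used limma 3.58.1 in R 4.3.3 (robust fit with a trend, Benjamini-Hochberg at 0.05) and was tested on simulated data. The members and lists were chosen with earlier results of these data known. All antigen genes are named, as are listed antigens and relatives with a 2-fold range or a call, the first 4 further antigens, the first relative of each antigen gene and the first 2 markers, with a probe set, of the podocyte and proximal tubule lists, the other lists being given as counts. Other genes were named after their values were seen, to spell out counts or examples. Genes most like an antigen in pattern were not sought, since 3 arrays cannot carry a correlation. Alternatives were other background percentiles, 1 or averaged probe sets per gene, quantile normalisation, median centring, other filters, other variance fits and leaving out each mouse.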

Additional observations from a re-analysis of the deposited data

How the results depend on the processing

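Over 13 alternatives, 5 antigen genes stayed above background. The dim Ncam1 probe set 1450437_a_at was no longer above background at the 99th percentile, so the count of probe sets was less stable than that of genes. The limma variance test called 0 probe sets of any gene as reported and under each alternative, so its counts of 0 for the antigens, the further antigens and the relatives say nothing on stability. The number of antigen genes with a 2-fold range, 1 as reported, was 0 with 1 probe set per gene and 0 with the probe sets of a gene averaged, since the first leaves out the dimmer Mme probe set and the second averages it. It was 0 to 1 when each mouse was left out in turn. The median SD of the antigen genes, 0.150 as reported, was 0.0685 with the probe sets of a gene averaged, beside 0.137 over all genes above background. It was 0.0426 to 0.186 when each mouse was left out in turn. The lowest came without mouse 3, beside 0.120 over all genes, and the highest without mouse 2, beside 0.135. The antigen median thus lay below or above that of all genes depending on the mice used. No paired analysis was possible because there is 1 group. Signal over background limits Nell1, Ntng1 and the dim Ncam1 probe sets, and 3 mice limit every SD.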
